A study of Mus musculus with 12 samples.

Results

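A set of 10 genes that mark the stromal progenitors of fat was followed through white adipose tissue of mice that lack Ahnak and of wild-type mice, on a chow and on a high fat diet. The genes are Pdgfra, Pdgfrb, Cd34, Dpp4, Pi16, Cd24a, Gata2, Gata3, Wnt10b and Dlk1. They were chosen by name, as surface markers of adipocyte progenitors and as regulators that hold progenitors back from becoming adipocytes. The rule itself uses no measured value of theirs, but the list was drawn up with earlier results of these data known. Each was read by the 1 row of the array table that carries its symbol alone, and the 10 genes stand among 19937 genes tested.

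Adipocyte progenitors are fibroblast-like cells that lie around vessels and in the connective tissue sheath of fat, carry the receptors PDGFRα and PDGFRβ and the sialomucin CD34, and give rise to new adipocytes. A layered hierarchy has been described for mouse fat, in which DPP4+ PI16+ cells of the interstitium precede more committed preadipocytes. GATA2, GATA3, WNT10B and DLK1 (also called PREF-1) each keep preadipocytes from differentiating, and their RNA falls when preadipocytes in culture turn into adipocytes.

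The study took white adipose tissue from 18-week-old male mice and hybridised each sample to 1 Affymetrix whole-transcript array of 1 colour. Ahnak, the gene that was knocked out, encodes a very large scaffold protein. The groups were Ahnak KO on regular chow, WT on regular chow, Ahnak KO on a high fat diet (HFD) and WT on HFD, with 3 arrays in each of the 4 groups. The HFD held 60% fat, 20% carbohydrate and 20% protein and was fed for 12 weeks to weight-matched groups. The labels name neither the fat depot nor the strain nor the KO construct, and they do not state that each replicate was a separate animal, so the p-values below measure the spread between samples, which may be technical.

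Values are log2 intensities as deposited, and a change is a difference of 2 group means on that scale with its standard error (SE) and n = 3 arrays a group. A gene passed where limma's moderated test, fitted to all 12 arrays, gave a Benjamini-Hochberg adjusted p under 0.05 over all genes. Intensities of different probes do not rank genes by abundance, so each gene is compared only with itself. Arrays of 1 group correlated at 0.985 to 0.996 across genes, and the deposited table has no detection calls, so no gene could be called present or absent. Ahnak averaged 9.33 ± 0.08 in KO and 10.03 ± 0.08 in WT on chow, and 9.47 ± 0.10 in KO and 10 ± 0.30 in WT on HFD (SD, n = 3 each), with no overlap between genotypes on either diet. Ahnak fell on HFD (-0.52 ± 0.13, adjusted p = 0.021) and did not pass on chow (-0.69 ± 0.13, adjusted p = 0.38). On HFD it no longer passed once KO HFD replicate 2 or 3 was left out (adjusted p = 0.062 and 0.067), or WT HFD replicate 3 (adjusted p = 0.074). The sources do not say where its probes lie relative to the targeted stretch. The adipocyte gene Adipoq, which encodes adiponectin, averaged 13.15 in KO and 13.13 in WT on chow, and 13.29 in KO and 12.86 in WT on HFD, and the fibroblast gene Dcn, which encodes decorin, averaged between 13.24 and 13.37 in the 4 groups.

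On HFD, Pdgfrb fell and Gata2 rose in KO against WT fat, and the other 8 genes did not pass. On chow no member passed between genotypes. In WT fat, Pdgfrb rose and Gata2 and Cd24a fell on HFD against chow. In KO fat, no member passed between the diets. Pdgfra, Cd34, Dpp4, Pi16, Gata3, Wnt10b and Dlk1 passed in none of the 4 comparisons of groups.

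**Figure D1:**
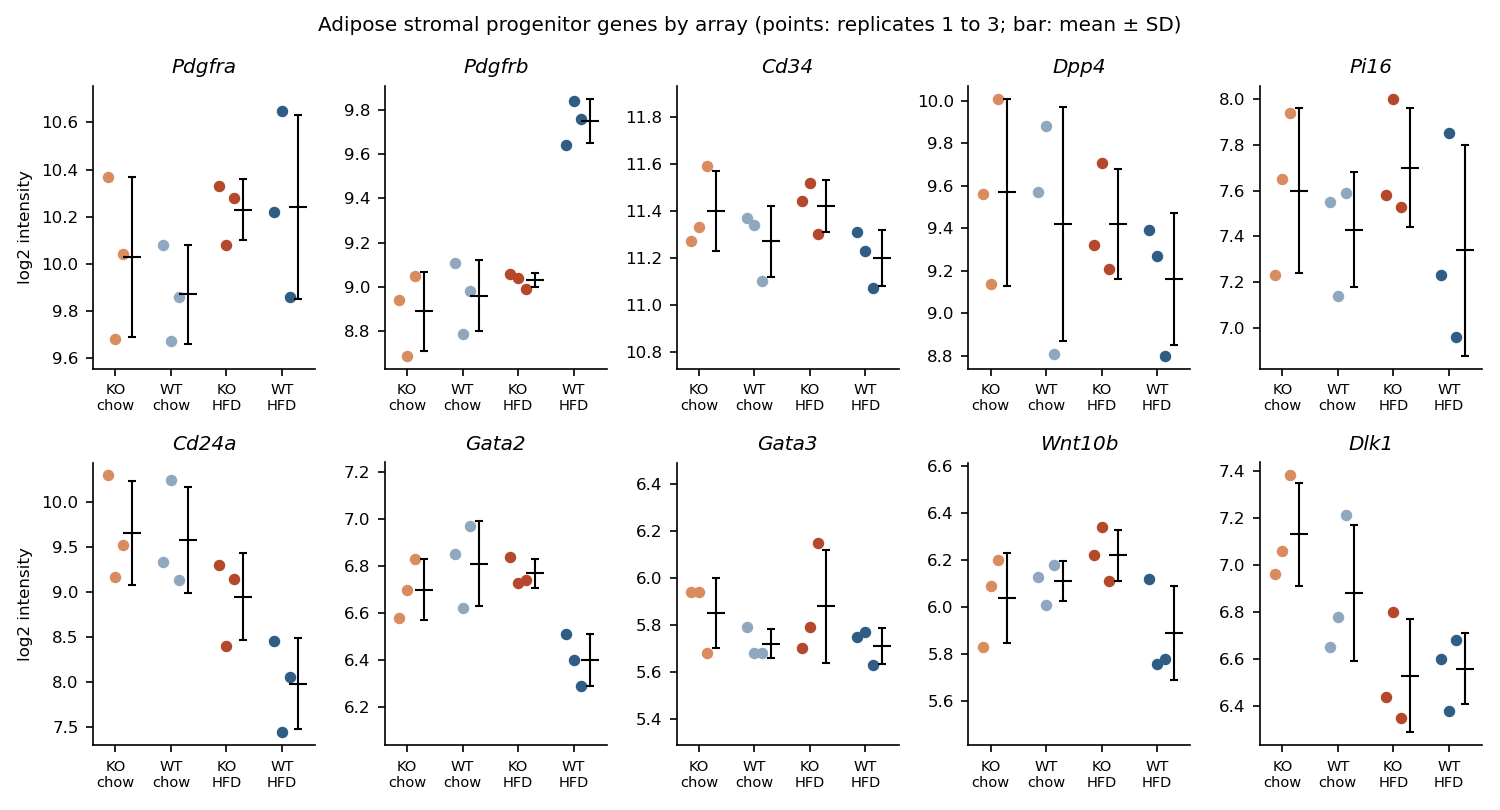
The deposited log2 intensity of each of the 10 progenitor genes on every array, in 4 groups of 3 arrays (KO chow, WT chow, KO HFD, WT HFD); points are arrays and bars the mean ± SD, and each panel has its own vertical axis, which does not start at 0. For Pdgfrb the 3 WT arrays on HFD lie between 9.64 and 9.84, above all 9 others, and for Gata2 they lie between 6.29 and 6.51, below all 9 others. The share of all genes with such a pattern was not counted.

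The genotype comparison on chow asks whether the loss of Ahnak alters these genes without a dietary load. None of the 10 members passed, nor did any of all genes (0%), and 0 members reached an unadjusted p under 0.05 against 1116 of all genes. The changes ran from -0.11 for Gata2 to 0.25 for Dlk1, with a median of 0.13 against 0.009 over all genes, and 0 of the 10 had KO and WT arrays that did not overlap, against 11.5% of all genes. On HFD 2 of 10 members passed, 1 higher and 1 lower in KO, where 13.5% of all genes passed, 6.65% higher and 6.85% lower. At an unadjusted p under 0.05 the counts were 4 of the 10 members and 5351 of all genes. The same 2 genes, Pdgfrb and Gata2, were those whose HFD arrays did not overlap between genotypes, against 30.9% of all genes. The share of members past the threshold was thus near that of all genes. Of the 10 changes 7 lay above 0, with a median of 0.24 against 0.018 over all genes and a range of -0.72 to 0.96. When only the 6 HFD arrays were fitted, 0 members, 4 of all genes and none of the genes in the 18 lists used below passed for KO against WT on HFD.

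**Figure D2:**
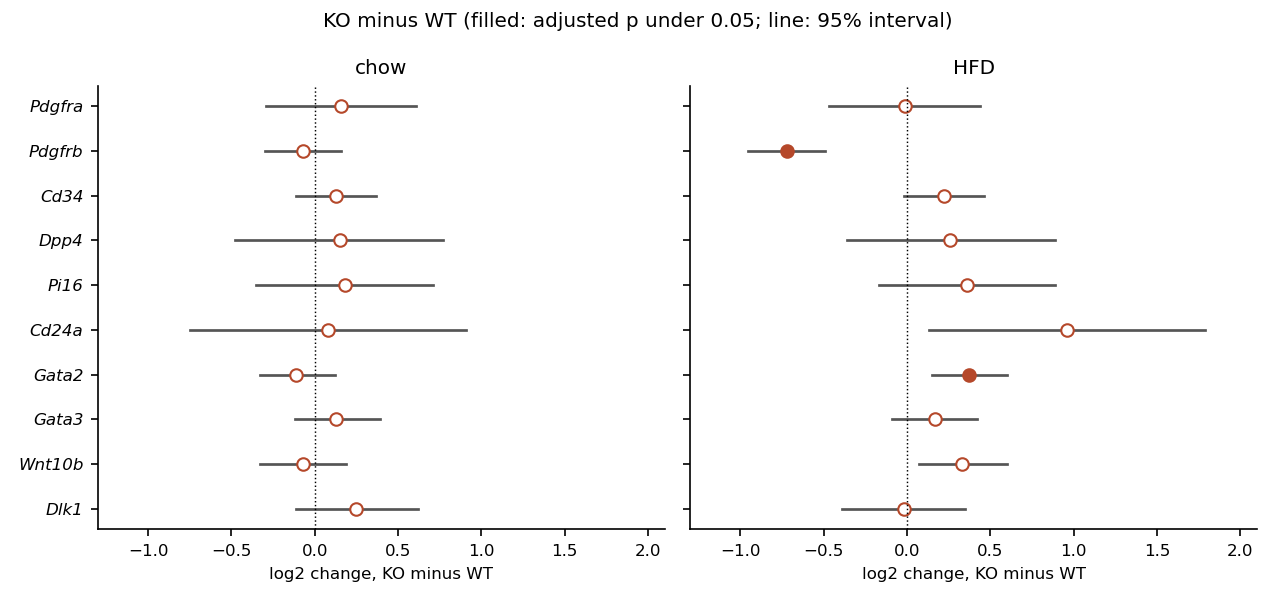
KO minus WT log2 change of each progenitor gene on chow (left) and on HFD (right), with its 95% interval from limma; filled points passed at an adjusted p under 0.05. No interval on chow lies clear of 0, and on HFD Pdgfrb (-0.72) and Gata2 (0.37) are filled while Cd24a (0.96) and Wnt10b (0.33) have intervals above 0 without passing the adjustment.

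The comparison of diets asks what 12 weeks of HFD did to these genes in each genotype. In KO 0 of 10 members passed, against 6.34% of all genes, and 1 had an unadjusted p under 0.05, as did 4547 of all genes. In WT 3 of 10 passed, 1 higher and 2 lower on HFD, against 24.1% of all genes, 11.8% higher and 12.3% lower, and 3 members and 7023 genes had an unadjusted p under 0.05. The median change of the 10 was 0.05 in KO and -0.15 in WT, against -0.008 and -0.027 over all genes. The interaction of genotype and diet passed for none of the 10 members and for 0.00502% of all genes, which is 1 gene; at an unadjusted p under 0.05 the counts were 3 members and 3496 genes. So a call in WT beside no call in KO does not by itself show that the genotypes differed in their diet response. Counts in the gene lists below are to be read against the shares of all genes given here and above.

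**Figure D3:**
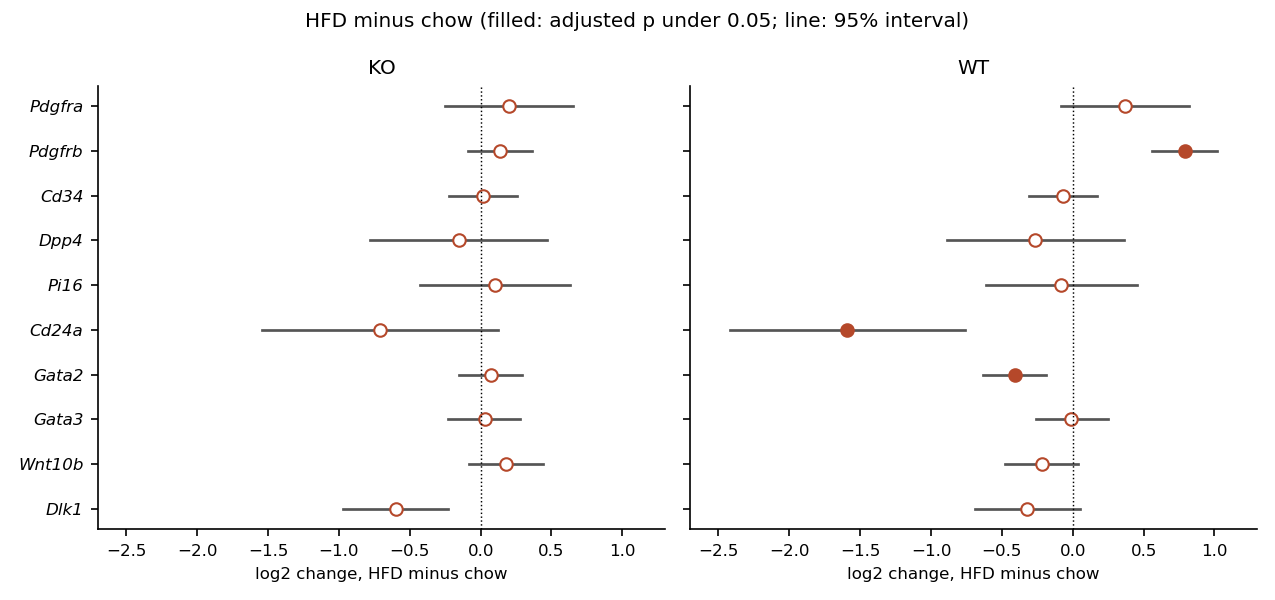
HFD minus chow log2 change of each progenitor gene in KO (left) and WT (right) fat, with its 95% interval from limma; filled points passed at an adjusted p under 0.05. Pdgfrb (0.79), Cd24a (-1.59) and Gata2 (-0.41) are filled in WT, no gene is filled in KO, and the KO interval of Dlk1 lies below 0 without passing the adjustment.

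Among the receptors, Pdgfrb encodes the receptor of PDGF-BB and PDGF-DD and marks mural cells of vessels as well as progenitors. On chow its log2 values were 8.94, 8.69 and 9.05 in KO and 9.11, 8.79 and 8.98 in WT. On HFD they were 9.06, 9.04 and 8.99 in KO and 9.64, 9.84 and 9.76 in WT. The WT arrays on HFD were high and stood clear of every other array, and the chow arrays of the genotypes overlapped. How many of all genes had WT HFD arrays clear of all others was not counted. On HFD Pdgfrb fell in KO against WT by 0.72 ± 0.10 on the log2 scale (adjusted p = 0.0046), a linear ratio of 0.607. In WT it rose on HFD against chow by 0.79 ± 0.10 (adjusted p = 0.001), a ratio of 1.73. In KO the diet difference was 0.14 ± 0.10 (adjusted p = 0.49), with a 95% interval of -0.09 to 0.36, and on chow the genotype difference was -0.07 ± 0.10 (95% interval -0.30 to 0.16). The difference of these differences, the interaction of genotype and diet, was -0.65 ± 0.15 with an unadjusted p of 0.00098 and did not pass (limma adjusted p = 0.089). It passed without WT HFD replicate 1 (-0.71, adjusted p = 0.016). The HFD genotype call held whichever single array was left out (adjusted p of 0.0009 to 0.026) and reached an adjusted p of 0.05, just over the threshold, when only the 6 HFD arrays were fitted.

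Pdgfra, the receptor most used to mark adipocyte progenitors, passed in no comparison. Its values ran from 9.68 to 10.37 in KO and 9.67 to 10.08 in WT on chow, and from 10.08 to 10.33 in KO and 9.86 to 10.65 in WT on HFD. All ranges overlapped. The genotype difference on HFD was -0.01 ± 0.21 with a 95% interval of -0.47 to 0.44 (adjusted p = 0.98). HFD against chow gave 0.20 ± 0.21 in KO and 0.37 ± 0.21 in WT, and neither passed.

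The ligands of these receptors were read as a list of 4. On HFD 1 of them rose in KO against WT and 3 did not pass. The one that rose was Pdgfc, which encodes the chain of PDGF-CC, a ligand of PDGFRα. It had 9.53, 9.45 and 9.29 in KO and 9.19, 8.83 and 9.01 in WT (0.41 ± 0.10, adjusted p = 0.021), with no overlap. In WT it fell on HFD against chow (-0.46 ± 0.10, adjusted p = 0.0071), while Pdgfb, the chain of PDGF-BB, rose (0.50 ± 0.13, adjusted p = 0.016). Pdgfb had 8.53, 8.30 and 8.60 in KO and 8.57, 8.97 and 8.92 in WT on HFD, and the genotype difference did not pass (-0.34 ± 0.13, adjusted p = 0.11). The Pdgfc genotype call was lost without KO HFD replicate 1 or 2 or WT HFD replicate 2 or 3 (adjusted p up to 0.086), and the Pdgfb diet call without WT HFD replicate 2 or 3 or WT chow replicate 2 (adjusted p up to 0.063).

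Cd34, Dpp4 and Pi16 mark early progenitors at the cell surface. Cd34, which also marks endothelium, ran from 11.27 to 11.59 in KO and 11.10 to 11.37 in WT on chow, and from 11.30 to 11.52 in KO and 11.07 to 11.31 in WT on HFD. The HFD ranges overlapped narrowly, and the difference of 0.22 ± 0.11 did not pass (adjusted p = 0.24). Pi16, a peptidase inhibitor of interstitial fibroblasts, ran from 7.23 to 7.94 in KO and 7.14 to 7.59 in WT on chow, and from 7.53 to 8 in KO and 6.96 to 7.85 in WT on HFD. Its HFD difference was 0.36 ± 0.24 (95% interval -0.17 to 0.89, adjusted p = 0.40). Neither gene passed between diets in either genotype.

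Dpp4 encodes a surface peptidase that cleaves incretins and chemokines. Its values were 9.56, 9.14 and 10.01 in KO and 9.57, 9.88 and 8.81 in WT on chow. On HFD they were 9.32, 9.71 and 9.21 in KO and 9.39, 9.27 and 8.80 in WT. The spread within a group, up to 1.07 among the WT arrays on chow, exceeded the differences in the 4 comparisons of groups, the largest of which was -0.27 ± 0.29 for HFD against chow in WT. The genotype difference on HFD was 0.26 ± 0.29, with a 95% interval of -0.36 to 0.89 that holds changes in either direction.

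Over the 12 arrays the gene whose values were most like those of Dpp4 was Wt1, a transcription factor of the mesothelium (Pearson r = 0.936, and 0.98 once group means were removed), followed by the proteoglycan genes Spock2 (0.928) and Spock3 (0.921). Wt1 had 8.01, 7.66 and 8.37 in KO and 8.24, 8.55 and 7.69 in WT on chow, and 7.90, 8.20 and 7.68 in KO and 8.04, 7.85 and 7.34 in WT on HFD. Within both chow groups the array highest for Dpp4 was also highest for Wt1, and the array lowest for Dpp4 was lowest for Wt1. Such an r over arrays that share labelling and scaling is a description of likeness. Of the 7 mesothelial markers, none passed in any comparison. The log2 of their summed linear intensity ran from 11.53 to 12.59 in KO and 11.49 to 12.76 in WT on chow. On HFD it ran from 11.19 to 12.29 in KO and 11.29 to 12.30 in WT, a spread of about 1 within each group. Bright rows weigh most in such a sum. Neither of the defining markers Msln and Upk3b was near the bottom of the scale, with means of 8.62 in KO and 8.95 in WT for Msln and 10.07 in KO and 10.13 in WT for Upk3b on HFD. The part of mesothelium in the Dpp4 values was not tested.

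The wider gene lists around these surface markers were mixed. Of 10 measured genes of DPP4+ interstitial progenitors, 1 rose in KO against WT on HFD and 9 did not pass (median 0.09 against 0.018 over all genes). That gene was Opcml, an adhesion molecule (0.44 ± 0.11, adjusted p = 0.03), whose call was lost on leaving out any 1 HFD array other than WT replicate 2 (adjusted p up to 0.11). In WT, 4 of the 10 rose (2 to 4 without single arrays) and 1 fell on HFD against chow. They include Anxa3, an annexin (0.79 ± 0.14, adjusted p = 0.0033), Sema3c, a secreted semaphorin (0.71 ± 0.14, adjusted p = 0.0042), and Cd55, a complement regulator used to sort these cells (0.69 ± 0.17, adjusted p = 0.014; up to 0.056 without WT HFD replicate 3 or WT chow replicate 3). Dpp4 and Pi16 did not pass in that comparison, with -0.27 ± 0.29 and -0.08 ± 0.24. In KO, Anxa3 rose as well (0.56 ± 0.14, adjusted p = 0.041, and 0.05 to 0.14 without single arrays).

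Of 12 genes of committed preadipocytes, 1 rose and 3 fell in KO against WT on HFD, and 8 did not pass (median 0.02). The basement membrane collagens Col4a1 (-0.62 ± 0.13, adjusted p = 0.011) and Col4a2 (-0.61 ± 0.11, adjusted p = 0.0082) and the adhesion molecule Icam1 (-0.53 ± 0.10, adjusted p = 0.0091) fell. Ebf2, a transcription factor of preadipocytes, rose (0.62 ± 0.13, adjusted p = 0.011; 0.052 without KO HFD replicate 1). In WT the directions were the reverse on HFD against chow, with Col4a1 (0.65 ± 0.13), Col4a2 (0.66 ± 0.11) and Icam1 (0.41 ± 0.10; adjusted p = 0.051 without WT chow replicate 2) higher and Ebf2 (-0.39 ± 0.13, adjusted p = 0.043; up to 0.16 on leaving out any 1 array other than WT HFD replicate 1) lower. The WT arrays on HFD enter both comparisons. Among 8 genes of the stromal cells that restrain adipogenesis, Gdf10, a TGF-beta family ligand, rose in KO against WT on HFD (0.58 ± 0.13, adjusted p = 0.016; up to 0.069 without KO HFD replicate 1 or WT HFD replicate 3) and Abcg1, a cholesterol exporter that macrophages also use, fell (-0.66 ± 0.17, adjusted p = 0.027; up to 0.10 on leaving out any 1 HFD array other than WT replicate 1), while 6 did not pass. On chow Gdf10 was lower in KO without passing (-0.52 ± 0.13, adjusted p = 0.61). In WT it fell on HFD against chow (-1.02 ± 0.13, adjusted p = 0.00092), and its interaction did not pass (1.1 ± 0.18, adjusted p = 0.055).

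Of 14 measured stromal fibroblast genes, 1 rose and 5 fell in KO against WT on HFD, and 8 did not pass (median -0.32 against 0.018 over all genes). The matrix proteoglycan gene Lum (-1.28 ± 0.24, adjusted p = 0.0083), the collagen gene Col1a1 (-0.86 ± 0.18, adjusted p = 0.014) and Vim, an intermediate filament of mesenchymal and blood cells (-0.24 ± 0.07, adjusted p = 0.043), were among those that fell. Gsn, the actin-severing gelsolin, rose (0.33 ± 0.07, adjusted p = 0.014). The count of fallen genes was 1 to 5 without single arrays, and single arrays ended the calls of 3 of the genes named here: Col1a1 without KO HFD replicate 1 or 3 (adjusted p up to 0.06), Gsn without KO HFD replicate 1 or WT HFD replicate 2 or 3 (up to 0.063), and Vim on leaving out any 1 HFD array other than WT replicate 1 (up to 0.16). Dcn, the other gene that heads this list, had 0.06 ± 0.07 (adjusted p = 0.66). In WT, 8 of the 14 rose and 1 fell on HFD against chow.

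Pdgfrb on HFD moved with macrophage genes. Of 11 macrophage markers, 9 fell in KO against WT on HFD (7 to 10 without single arrays) and 2 did not pass, and 10 rose in WT on HFD against chow. The WT arrays on HFD enter both counts. The log2 of the summed linear intensity of these markers ran from 13.26 to 13.57 in KO and 13.52 to 13.87 in WT on chow. On HFD it ran from 13.60 to 13.68 in KO and 14.39 to 15.55 in WT. The WT arrays on HFD stood clear of all others, as they did for Pdgfrb, a pattern whose share over all genes was not counted. The heading markers were Adgre1, an adhesion receptor (means of 9.36 in KO and 10.98 in WT on HFD), and Cd68 (10.27 in KO and 12.16 in WT), so neither was near 0. On WT HFD replicates 1, 2 and 3 Pdgfrb had 9.64, 9.84 and 9.76, and Itgax, an integrin subunit of macrophages and dendritic cells, had 8.96, 11.31 and 10.61. Both were lowest on replicate 1 and highest on replicate 2. That order was not particular to macrophage genes. The fibroblast genes Lum (10.06, 11.32 and 10.84), Col1a1 (11.38, 12.23 and 11.61) and Vim (13.37, 13.58 and 13.42) had it too, while Dcn and Gsn did not. The genes whose values were most like Pdgfrb over the 12 arrays were Alox5ap, the activator of 5-lipoxygenase (r = 0.975, and 0.74 with group means removed), Fxyd5 (0.974, and 0.77) and the transporter gene Abca9 (0.974, and 0.92). Of 11 mural cell markers, 0 rose and 1 fell on HFD in KO against WT. It was Cspg4, the pericyte proteoglycan NG2 (-0.35 ± 0.10, adjusted p = 0.05 and under the threshold before rounding, lost on leaving out any 1 HFD array other than KO replicate 2), while Rgs5, a pericyte gene, had 0.54 ± 0.29 and Myh11, the smooth muscle myosin, 0.11 ± 0.25. The mural sum ran from 13.27 to 13.60 in KO and 12.76 to 13.64 in WT on HFD. In such bulk tissue, fewer cells of a type and less RNA per cell cannot be told apart, and the part of macrophages in the Pdgfrb values was not tested.

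**Figure D4:**
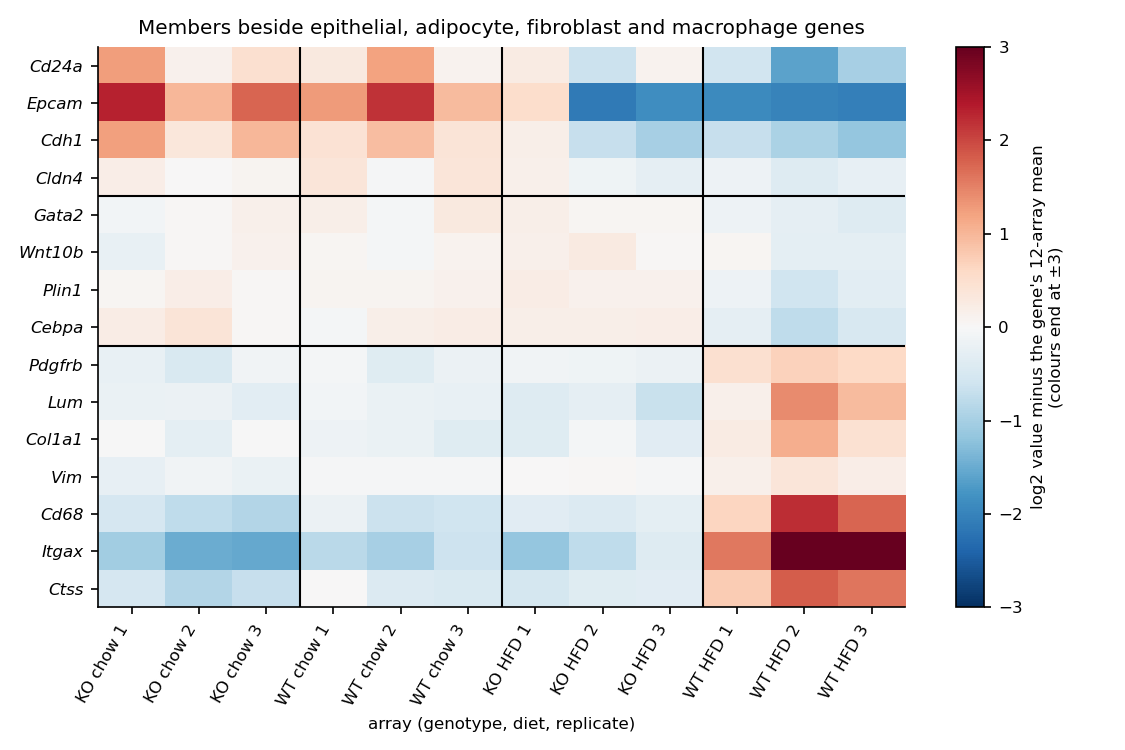
Heat map of log2 value minus the 12-array mean of each gene (rows) on each array (columns, KO left of WT within a diet), for Cd24a above 3 epithelial genes, Gata2 and Wnt10b above 2 adipocyte genes, and Pdgfrb above 3 fibroblast and 3 macrophage genes; colours end at ±3. The 3 WT arrays on HFD are low for Gata2, Plin1 and Cebpa and high for Pdgfrb, Lum and Cd68, and Epcam is above its mean on all 6 chow arrays and on KO HFD replicate 1. The rows are a choice from each list, and genes that moved otherwise are left out. Among these are the epithelial gene Krt14, which rose in WT on HFD against chow, and the fibroblast gene Gsn, which fell there. Also left out is the 1 adipocyte gene that fell in KO against WT on HFD. The fibroblast gene Dcn, which did not pass, is also not shown.

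Gata2 encodes a zinc finger transcription factor of preadipocytes, endothelium, mast cells and blood progenitors. Its values were 6.58, 6.70 and 6.83 in KO and 6.85, 6.62 and 6.97 in WT on chow. On HFD they were 6.84, 6.73 and 6.74 in KO and 6.51, 6.40 and 6.29 in WT. The WT arrays on HFD were low and lay under every other array, and the other 3 groups overlapped. As for Pdgfrb, the share of all genes with WT HFD arrays clear of all others was not counted. Gata2 rose in KO against WT on HFD by 0.37 ± 0.10 (adjusted p = 0.033), a ratio of 1.3, and fell in WT on HFD against chow (-0.41 ± 0.10, adjusted p = 0.014), a ratio of 0.753. In KO the diet difference was 0.07 ± 0.10 (95% interval -0.15 to 0.29), and on chow the genotype difference was -0.11 ± 0.10 (95% interval -0.33 to 0.12). The interaction was 0.48 ± 0.14 (adjusted p = 0.13) and passed without WT HFD replicate 1 (0.53, adjusted p = 0.047), as did 2060 of all genes.

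The Gata2 call on HFD depended on single arrays. It was lost without KO HFD replicate 1, 2 or 3 (adjusted p = 0.12, 0.062 and 0.079) and without WT HFD replicate 2 or 3 (0.089 and 0.13), with changes of 0.32 to 0.39, and it was lost when only the 6 HFD arrays were fitted (0.068). The diet call in WT was lost without WT chow replicate 3 (-0.33, adjusted p = 0.056) or WT HFD replicate 3 (-0.35, adjusted p = 0.061).

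Wnt10b, a secreted ligand that activates beta-catenin and blocks adipogenesis, had the values most like those of Gata2 among the members (r = 0.79 over 12 arrays, and 0.71 with group means removed). On chow it had 5.83, 6.09 and 6.20 in KO and 6.13, 6.01 and 6.18 in WT. On HFD it had 6.22, 6.34 and 6.11 in KO and 6.12, 5.76 and 5.78 in WT. WT HFD replicates 2 and 3 were low, and WT HFD replicate 1 overlapped the KO arrays. The genotype difference on HFD was 0.33 ± 0.12 with a 95% interval of 0.07 to 0.60 and did not pass (adjusted p = 0.089). Without WT HFD replicate 1 it passed, at 0.45 (adjusted p = 0.016), and 3930 of all genes then passed against 2691 with all 12 arrays. The diet difference in WT was -0.22 ± 0.12 (adjusted p = 0.22), and without the same array -0.33 (adjusted p = 0.049). In KO it was 0.18 ± 0.12 and did not pass.

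Cd34 and Dpp4 were the members most alike from array to array (r = 0.82), and their promoters are not shown. The promoters of Gata2 and Wnt10b, the next pair, are shown as an example. Each is the 250 bases before an annotated start, from RefSeq on GRCm38.p6, printed 5′ to 3′ on the gene's strand, and capitals mark GGGCGG, the GC box bound by SP1, and CCAAT, on either strand. RefSeq gives Gata2 a pair of such starts, and 8 of the 10 members had an entry in the promoter table.
Gata2 first start (chr6:88193641-88193890, plus strand): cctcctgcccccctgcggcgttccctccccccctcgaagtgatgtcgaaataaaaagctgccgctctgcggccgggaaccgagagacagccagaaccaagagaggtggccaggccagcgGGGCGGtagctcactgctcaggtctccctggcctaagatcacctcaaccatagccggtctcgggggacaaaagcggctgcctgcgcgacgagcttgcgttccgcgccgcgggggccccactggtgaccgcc
Gata2 second start (chr6:88198414-88198663, plus strand): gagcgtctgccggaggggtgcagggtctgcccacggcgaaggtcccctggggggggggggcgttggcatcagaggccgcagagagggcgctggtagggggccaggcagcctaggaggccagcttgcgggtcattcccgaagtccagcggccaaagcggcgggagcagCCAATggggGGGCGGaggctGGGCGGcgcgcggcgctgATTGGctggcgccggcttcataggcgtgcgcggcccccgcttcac
Wnt10b (chr15:98778151-98778400, minus strand): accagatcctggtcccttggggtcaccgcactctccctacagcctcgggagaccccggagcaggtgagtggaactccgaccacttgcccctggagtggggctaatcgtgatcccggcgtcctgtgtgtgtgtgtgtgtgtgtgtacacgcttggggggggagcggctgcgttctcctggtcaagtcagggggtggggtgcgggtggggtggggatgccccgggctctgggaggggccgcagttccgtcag
Both strands were searched for the GATA motifs GATAA and GATAG, for CCAAT and for the GC box GGGCGG, and no matches overlapped. The Gata2 first start held 1 GC box, and the second start held 2 GC boxes and 2 matches of CCAAT, 1 of them on the minus strand and so printed as ATTGG. The Wnt10b window held none of the 4 motifs. Over 32851 mouse promoters of the same length, GATAA was present in 22.6%, GATAG in 20.6%, CCAAT in 33.8% and GGGCGG in 32.7%. The GC content was 67.2% and 74.0% at the Gata2 starts and 66.8% at Wnt10b, against a median of 52.4% over all promoters. Letters in such a window are no evidence of binding or of its absence.

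Gata3, the relative of Gata2 that also restrains preadipocytes and is used by T cells and innate lymphoid cells, did not pass in any comparison. It ran from 5.68 to 5.94 in KO and 5.68 to 5.79 in WT on chow, and from 5.70 to 6.15 in KO and 5.63 to 5.77 in WT on HFD. The KO range on HFD was widened by replicate 3, at 6.15, and the difference of 0.17 ± 0.11 had a 95% interval of -0.09 to 0.42. The diet differences were 0.03 ± 0.11 in KO and -0.01 ± 0.11 in WT. Of 6 GATA relatives and their FOG cofactors none passed in any comparison; Gata6, a GATA factor of visceral fat and mesothelium, had 0.53 ± 0.19 for KO against WT on HFD (adjusted p = 0.092) and -0.54 ± 0.19 for HFD against chow in WT (adjusted p = 0.062).

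Around Wnt10b, 24 Wnt ligands, receptors and inhibitors were measured. On HFD 2 rose in KO against WT (0 to 5 without single arrays), 0 fell and 22 did not pass (median 0.09). Wnt5a and Wnt11, ligands linked to beta-catenin-independent signalling, rose by 0.38 ± 0.11 (adjusted p = 0.044) and 0.34 ± 0.09 (adjusted p = 0.032), and the calls were lost on leaving out any 1 HFD array other than WT replicate 3 for Wnt5a and WT replicate 1 for Wnt11 (adjusted p up to 0.17 and 0.12). Axin2, a target gene of beta-catenin, had 7.36, 7.35 and 7.56 in KO and 7.05, 6.27 and 6.70 in WT on HFD, without overlap, and did not pass (0.75 ± 0.23, adjusted p = 0.056). In WT 3 of the 24 rose (1 to 3 without single arrays) and 4 fell (3 to 7) on HFD against chow, and Axin2 fell (-0.99 ± 0.23, adjusted p = 0.011). Wnt10a and Wnt6, ligands found with Wnt10b in preadipocytes, had -0.06 ± 0.16 and 0.05 ± 0.11 for KO against WT on HFD.

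Gata2 on HFD moved in the same direction as most of the adipocyte genes. Of 8 adipocyte markers, 5 rose and 1 fell in KO against WT on HFD, and 1 rose and 5 fell in WT on HFD against chow. Both comparisons share the WT arrays on HFD. The log2 of the summed linear intensity of the 8 ran from 15.44 to 15.57 in KO and 15.46 to 15.61 in WT on chow. On HFD it ran from 15.61 to 15.64 in KO and 15.10 to 15.55 in WT. Plin1, the perilipin that coats lipid droplets, rose by 0.52 ± 0.10 (adjusted p = 0.0091) and Cebpa, a transcription factor of adipocytes, by 0.69 ± 0.13 (adjusted p = 0.0082). Adipoq had 0.43 ± 0.14 and did not pass (adjusted p = 0.065). On WT HFD replicates 1, 2 and 3 Plin1 had 12.69, 12.24 and 12.52 and Gata2 had 6.51, 6.40 and 6.29, so that both were highest on replicate 1 but lowest on different arrays. Without single arrays the count of adipocyte genes that rose in KO was 2 to 6, and of those that fell in WT 2 to 6. Tek, an endothelial receptor, rose in KO against WT on HFD (0.51 ± 0.14, adjusted p = 0.035; up to 0.12 on leaving out any 1 HFD array other than WT replicate 1) while 11 of 12 endothelial markers did not pass, and Cma1, a mast cell chymase, rose (0.48 ± 0.14, adjusted p = 0.047; up to 0.17 on leaving out any 1 HFD array other than WT replicate 2) while 7 of 8 mast cell markers did not. The endothelial sum ran from 13.15 to 13.28 in KO and 12.36 to 13.14 in WT on HFD, the mast cell sum from 10.39 to 10.80 in KO and 9.66 to 10.79 in WT. The part of these cell types in the Gata2 and Wnt10b values was not tested. The genes most like Gata2 over the 12 arrays were Fam214a (r = 0.945), Mdm4, a relative of the p53 inhibitor MDM2 (0.941), and the deacetylase gene Hdac10 (0.94).

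Cd24a encodes a small glycosylated surface protein of progenitors, epithelium, neutrophils and B cells, and had the widest diet change of the members. Its values were 10.30, 9.17 and 9.52 in KO and 9.34, 10.25 and 9.14 in WT on chow. On HFD they were 9.30, 8.40 and 9.15 in KO and 8.46, 7.44 and 8.05 in WT. All WT arrays on HFD lay below all WT chow arrays, whereas the KO arrays of the diets overlapped, as did the genotypes on both diets. How many of all genes had no overlap between diets was not counted. In WT Cd24a fell on HFD against chow (-1.59 ± 0.38, adjusted p = 0.011), a ratio of 0.331, and the call held whichever single array was left out (adjusted p of 0.0071 to 0.044). In KO the difference was -0.71 ± 0.38 with a 95% interval of -1.54 to 0.12 (adjusted p = 0.29). The genotype difference on HFD was 0.96 ± 0.38, a ratio of 1.95, and did not pass (95% interval 0.13 to 1.79, adjusted p = 0.12). The interaction was 0.88 ± 0.53 (adjusted p = 0.44).

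Cd24a moved between diets with epithelial genes. Of 7 epithelial markers, 4 fell and 0 rose in KO on HFD against chow, and 5 fell and 1 rose in WT (0 to 4 and 3 to 5 fell without single arrays). The log2 of their summed linear intensity ran from 10.75 to 11.75 in KO and 10.70 to 11.70 in WT on chow. On HFD it ran from 9.10 to 10.43 in KO and 9.23 to 9.95 in WT. Epcam, an adhesion molecule of epithelium, had 9.33, 8.01 and 8.75 in KO and 8.29, 9.17 and 7.96 in WT on chow, and 7.53, 4.89 and 5.14 in KO and 5.09, 5.01 and 4.95 in WT on HFD. On HFD it was lower in KO (-2.84 ± 0.60, adjusted p = 0.025) and in WT (-3.46 ± 0.60, adjusted p = 0.0028). Cdh1, the epithelial cadherin, was lower on HFD as well (-1.35 ± 0.30 in KO, adjusted p = 0.029, and -1.52 ± 0.30 in WT, adjusted p = 0.0049). Both KO calls were lost without KO HFD replicate 2 or 3 or KO chow replicate 1 or 3 (adjusted p up to 0.11 for Epcam and 0.13 for Cdh1).

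In the KO chow, WT chow and KO HFD groups, the array with the highest Cd24a value also had the highest Epcam value, and the array with the lowest Cd24a value had the lowest Epcam value. Among the WT arrays on HFD, Epcam varied by little and Cd24a by 1.01. The Epcam values there, 5.09, 5.01 and 4.95, lay under the array medians of 5.78 to 5.92. The values on KO HFD replicates 2 and 3, 4.89 and 5.14, did so too. The spread and order of such dim values say little. Between genotypes on HFD the difference was 0.84 ± 0.60 for Epcam (adjusted p = 0.43), and the keratin gene Krt14 fell in KO against WT (-0.92 ± 0.16, adjusted p = 0.0065). The KO values of Krt14 on HFD, 5.60, 6.06 and 5.67, lay around the array medians. The genes most like Cd24a over the 12 arrays were the phosphatase gene Inpp5j (r = 0.981), the myosin gene Myo6 (0.978) and the glutathione transferase gene Gstm6 (0.975). The part of epithelial tissue in the Cd24a values was not tested, and the labels do not name the depot.

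Dlk1 encodes the transmembrane EGF-repeat protein DLK1, which is shed as a soluble inhibitor of adipogenesis. Its values were 6.96, 7.06 and 7.38 in KO and 6.65, 6.78 and 7.21 in WT on chow. On HFD they were 6.44, 6.80 and 6.35 in KO and 6.60, 6.38 and 6.68 in WT. In KO every HFD array lay below every chow array, whereas in WT the diets overlapped. The share of all genes without overlap between diets was not counted, so such a gap says little by itself. The diet difference was -0.60 ± 0.17 in KO, a ratio of 0.66, and narrowly did not pass (95% interval -0.97 to -0.23, adjusted p = 0.058). In WT it was -0.32 ± 0.17 (95% interval -0.69 to 0.05, adjusted p = 0.20). The interaction was -0.28 ± 0.24 (adjusted p = 0.61), so the diet difference was not shown to depend on genotype. Between genotypes Dlk1 had 0.25 ± 0.17 on chow and -0.02 ± 0.17 on HFD, and the HFD interval of -0.39 to 0.35 holds changes in either direction.

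Of 13 relatives of Dlk1 and Notch pathway genes, 0 rose, 1 fell and 12 did not pass for KO against WT on HFD (median 0.11). That gene was Adam17, the protease that sheds DLK1 from the cell surface, with 9.35, 9.51 and 9.53 in KO and 9.84, 10.50 and 10.32 in WT on HFD. It fell in KO (-0.76 ± 0.15, adjusted p = 0.01) and rose in WT on HFD against chow (0.94 ± 0.15, adjusted p = 0.0019), and both calls held whichever single array was left out. The WT arrays on HFD enter both of these calls. Adam17 is also expressed by macrophages, whose markers fell in KO against WT on HFD as well, and their part in its values was not tested. Dlk2, the closest relative of Dlk1, had -0.02 ± 0.12 and Notch1 0.01 ± 0.17.

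The 10 members were also compared with each other over the 12 arrays, as a description of arrays that share labelling and scaling. The pair most alike was Cd34 and Dpp4 (r = 0.82, and 0.86 with group means removed), followed by Gata2 and Wnt10b. Pdgfrb ran against Cd24a (-0.81) and Gata2 (-0.70), and with group means removed these became -0.27 and 0.36. The receptors Pdgfra and Pdgfrb had r = 0.48, and 0.61 with group means removed.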

How the data were processed

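RNA from white adipose tissue was hybridised to 12 arrays of 1 colour, and the authors deposited a table of log2 intensities with 34760 rows. Per the submitters' processing notes the tool was affy; how background, probe summaries and scaling were handled is not stated there. The log base was inferred from the values (2.09 to 14.2), and array medians of 5.78 to 5.92 show scaling to a common level. Rows were named through the platform annotation: 21640 had 1 symbol, 1321 several and 11799 none. The row with the highest mean stood for each of 19937 genes, of which 19855 matched RefSeq by Entrez identifier.

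Values were used as deposited. A mean for each of 4 groups was fitted in limma 3.58.1 under R 4.3.3 (8 residual degrees of freedom), with eBayes and 5 contrasts: KO against WT on chow and on HFD, HFD against chow in WT and in KO, and their interaction. Tests were two-sided, with Benjamini-Hochberg adjustment over all genes, and the fit was tested on simulated data. The number of arrays limits precision: an exact permutation test of 3 against 3 arrays cannot give a p under 0.1. Members and lists were chosen with earlier results of these data known. Named are the members, Ahnak, the first 2 genes of each list and its 4 with the smallest p for KO against WT on HFD, and the 3 genes most like each member by Pearson r, leaving out Gm and Rik names. Alternatives were the compared groups alone, the replicate number as a block, an intensity trend, array weights, quantile or median scaling, no dim rows, the mean of a gene's rows, and leaving out each array. Promoter sequences are RefSeq's on GRCm38.p6.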

Additional observations from a re-analysis of the deposited data

How the results depend on the processing

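In 750 recomputed changes of the 10 members over all alternatives, 722 kept their side of the threshold, 10 lost a call and 18 gained one, 14 of these under array weights. The sign turned in 41, none of them past the threshold in either fit and none above 0.35 in size. On chow 0 members and 0 genes passed in every alternative. Between genotypes on HFD the count of members was 0 when the fit held the compared groups alone, 8 with array weights and 1 to 3 without single arrays, and that of all genes was 4, 7648 and 904 to 3930, the lowest without KO HFD replicate 1. For HFD against chow in WT array weights gave 7 members and 9985 genes, and leaving out arrays 2 to 4 members and 3072 to 5285 genes. For HFD against chow in KO array weights gave 1 member, Dlk1 (-0.63, adjusted p = 0.036), and 2137 genes; the count of genes was 585 with only the compared groups and 62 to 1509 without single arrays, the lowest without KO HFD replicate 3. For the interaction array weights gave 3 members and 2819 genes, and leaving out arrays 0 to 2 members and 0 to 2060 genes, the highest without WT HFD replicate 1. The array weight fit stopped short of its convergence tolerance. With only the compared groups the fit has fewer arrays; other causes were not tested.

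Same-numbered arrays did not deviate together, with correlations of -0.41 to 0.38 over the 4 comparisons, so the numbers were not taken as pairs. With the replicate block Pdgfrb passed for KO against WT on HFD (adjusted p = 0.0099) and Gata2 did not (0.051), so that 1 member and 2325 genes passed, and the count of all genes was 740 for HFD against chow in KO and 0 for the interaction. No value could be set against background, and the rows of Gata3 and Wnt10b lie near the array medians of 5.78 to 5.92.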

Other observations

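Genes of immune cells other than macrophages were read as lists beside the progenitor genes. Over all genes, 6.65% rose and 6.85% fell in KO against WT on HFD, and the counts here are to be read against these shares. Of 9 measured T cell and innate lymphoid genes, 0 rose and 1 fell (1 to 2 without single arrays) in KO against WT on HFD. In the fit to all arrays it was Il7r, the interleukin 7 receptor (means of 6.28 in KO and 9.81 in WT, -3.52 ± 0.56, adjusted p = 0.0059), while the T cell receptor chains Cd3e (0.04 ± 0.13) and Cd3d (0.04 ± 0.14) did not pass. Of 5 B cell genes 2 fell (1 to 2 without single arrays), Cd79b, a chain of the B cell receptor (-0.43, adjusted p = 0.015; up to 0.061 without KO HFD replicate 1 or 3), and Cd22, an inhibitory receptor (-1.11 ± 0.16, adjusted p = 0.0044), while Cd79a, whose protein pairs with that of Cd79b, had 0.00 ± 0.22. Of 7 granulocyte genes 2 fell (1 to 2 without single arrays), S100a8 (-1.18 ± 0.16, adjusted p = 0.0044) and Csf3r (-0.40 ± 0.09, adjusted p = 0.016; up to 0.072 without KO HFD replicate 1 or WT HFD replicate 2 or 3), and S100a9, whose protein pairs with that of S100a8, had -0.14 ± 0.10. None of the 3 lists had a gene that passed on chow. Cd3d (4.26 to 4.88), Cd79a (4.32 to 5.57), S100a9 (4.68 to 5.10) and Csf3r (5.09 to 5.72) lay under the array medians of 5.78 to 5.92 on all 12 arrays. Small changes of such dim rows say little. On the KO arrays on HFD, Cd22 and S100a8 lay under these medians as well.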
